A study of Mus musculus with 18 samples.

Results

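The Toll-like receptors described here are 10 genes of the mouse, Tlr1 to Tlr9 and Tlr13, chosen by gene symbol and not by any measured value. All 10 were present in the table of 55385 genes, and all 10 were among the 18634 genes with enough counts to be tested. Poly(A) RNA was sequenced from whole spleens of adult mice in 18 libraries, 6 of each of 3 genotypes, with 3 females and 3 males per genotype. Dp16 mice carry an additional copy of the chromosome 16 stretch from Lipi to Zbtb21, which corresponds to much of human chromosome 21 and lets them serve as a model of trisomy 21. Dp16_2xIFNRs mice carry the same duplication, but the interferon receptor genes inside it are back at the normal copy number. WT mice are C57BL/6J without the duplication, and the labels name no treatment in any group. Ages are given as 17.1 to 18.0 with a tag on days post conception, which does not match the adult mice of the series title, so their unit was not interpreted.

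Toll-like receptors are membrane proteins of the innate immune system that bind conserved molecules of microbes, and in the spleen they are found on B cells, dendritic cells, macrophages, monocytes and neutrophils. Tlr1, Tlr2, Tlr4, Tlr5 and Tlr6 work at the cell surface, where Tlr2 pairs with Tlr1 or Tlr6. Tlr3, Tlr7, Tlr8, Tlr9 and Tlr13 work in endosomes on nucleic acids, and all these receptors except Tlr3 signal through the adaptor Myd88 to NF-kappa B and interferon regulatory factors. Tlr9 is known for its role in B cells and plasmacytoid dendritic cells, both of which respond to microbial DNA.

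None of the 10 genes lies on chromosome 16, the chromosome of the duplicated interval. On GRCm38 with the GENCODE vM21 annotation, Tlr1 (ENSMUSG00000044827.10) spans chr5:64924679-64933563 on the minus strand and Tlr6 chr5:64952031-64960097 on the same strand, with 18467 bases between them. Tlr8 and Tlr7 are neighbours on the X chromosome, 40599 bases apart, and Tlr13 also lies on X. Tlr9 (ENSMUSG00000045322.10) spans chr9:106222598-106226883 on the plus strand and has 2 exons. Tlr1 and Tlr6 are alike in part of their sequence: 7.89% of the 100-base windows of Tlr1 transcripts occur unchanged in Tlr6 and 7.09% of those of Tlr6 in Tlr1, so reads from these stretches could be dropped or split in counting, and their counts are to that extent uncertain. Tlr3 overlaps the antisense gene Gm45542 over 698 bases, and whether counting used the strand is not given in the sources used here, so reads of this stretch cannot be assigned with certainty.

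The promoter windows of Tlr1 and Tlr9 are shown because these are the receptors whose RNA differed most clearly between genotypes. That of Tlr13 is shown as an example of the receptors whose RNA did not pass the test in any comparison, as was also so for Tlr2, Tlr3, Tlr4, Tlr5, Tlr6 and Tlr8. RefSeq windows of 300 bases (GRCm38.p6, 250 bases before to 50 after a transcription start) were found for 8 of the 10 genes, 10 windows in all; Tlr4 and Tlr7 are only named. Tlr1 has 2 windows, of which the first, chr5:64933509-64933808 on the minus strand, is printed; the second, chr5:64932650-64932949, holds none of the motifs searched. For the others, the Tlr9 window is chr9:106222348-106222647 on the plus strand, and the Tlr13 window is chrX:106143025-106143324 on the plus strand. Each is printed 5′ to 3′ on the strand of its gene. Capitals mark the letters GAGGAA of the PU-box, a site bound by PU.1 and related ETS factors of blood cells, or its reverse complement TTCCTC, and ATGCAAAT, the octamer bound by Oct factors of B cells.
Tlr1: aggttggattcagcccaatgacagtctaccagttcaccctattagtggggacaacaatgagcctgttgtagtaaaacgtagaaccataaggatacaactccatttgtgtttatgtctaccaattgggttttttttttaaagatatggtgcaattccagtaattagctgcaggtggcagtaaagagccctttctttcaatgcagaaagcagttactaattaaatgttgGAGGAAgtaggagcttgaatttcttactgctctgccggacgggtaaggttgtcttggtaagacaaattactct
Tlr9: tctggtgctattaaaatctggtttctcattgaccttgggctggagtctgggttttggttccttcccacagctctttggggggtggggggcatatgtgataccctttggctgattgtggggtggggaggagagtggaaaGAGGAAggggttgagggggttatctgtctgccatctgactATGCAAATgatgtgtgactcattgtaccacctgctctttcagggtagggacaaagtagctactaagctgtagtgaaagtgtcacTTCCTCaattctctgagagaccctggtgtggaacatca
Tlr13: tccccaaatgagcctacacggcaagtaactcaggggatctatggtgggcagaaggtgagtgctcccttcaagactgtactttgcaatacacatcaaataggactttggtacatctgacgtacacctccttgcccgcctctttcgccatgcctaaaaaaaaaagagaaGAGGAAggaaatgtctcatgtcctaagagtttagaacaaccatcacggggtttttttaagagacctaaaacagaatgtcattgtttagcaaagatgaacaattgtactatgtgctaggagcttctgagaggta
The PU-box letters start at position 228 of the first Tlr1 window, at positions 139 and 263 (reverse strand) of the Tlr9 window and at position 168 of the Tlr13 window, counted from 1 at the 5′ end. The octamer starts at position 179 of the Tlr9 window. Searched on both strands, the PU-box occurred in 4 of the 10 receptor windows and in 28.3% of all 32851 promoter windows, and the octamer in 1 of the 10 and in 1.74% of all. Of the windows not printed, that of Tlr8 held the PU-box, and those of Tlr2, Tlr3, Tlr5 and Tlr6 did not. The core of the interferon-stimulated response element (GAAA, 2 of any base, GAAA) was found in 1 receptor window (Tlr6) and in 3.44% of all windows, a kappa B form (GGGA, 2 of any base, TTCC) in 1 (Tlr3) and in 1.47%, and the ETS-IRF composite (GGAA, 2 of any base, GAAA), which can overlap the PU-box, in 0 and in 2.72%. A match is a description of letters and not a binding site, and these windows were not measured here.

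The libraries held 33998427 to 53021480 counts in genes. In Dp16 compared with WT spleens 3091 genes were higher and 2462 lower, and in Dp16_2xIFNRs compared with WT spleens 3217 were higher and 2643 lower, by edgeR's quasi-likelihood test with genotype and sex as terms at a Benjamini-Hochberg adjusted p below 0.05. This split depended on the scaling: upper-quartile scaling in place of TMM gave 2558 higher and 3333 lower in Dp16, and 2677 higher and 3451 lower in Dp16_2xIFNRs. A code in the sample descriptions is shared by some libraries of different genotypes, and its meaning is not given. With this code as a block, the comparison rests on libraries that share one. Dp16 then had 1692 higher and 835 lower genes, and Dp16_2xIFNRs 2663 higher and 1917 lower. Code 930 was the only one shared by a Dp16 and a WT library. The blocked comparison of Dp16 with WT otherwise rests on links through Dp16_2xIFNRs. The share of counts on Gm42418, a gene that overlaps ribosomal RNA, ran from 0.691% to 5.51% and was over 4% in 4 libraries (WT replicate 4, Dp16 replicates 2 and 3 and Dp16_2xIFNRs replicate 5). Nothing in the labels says in words that the 6 libraries of a genotype came from separate mice, and p-values measure the spread between these libraries.

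Tlr1 and Tlr9 had the highest levels of the 10 receptors per gene length in each genotype. Tlr1 averaged 15.6 ± 1.91 RPKM in Dp16, 17.8 ± 1.65 RPKM in Dp16_2xIFNRs and 25.8 ± 3.39 RPKM in WT spleens (SD, n = 6 each). Tlr9 averaged 14.8 ± 2.55 RPKM in Dp16, 14.0 ± 3.92 RPKM in Dp16_2xIFNRs and 24.9 ± 3.54 RPKM in WT spleens. The ranges of these 2 genes overlapped within each genotype, and both stood above Tlr7, the next in order, with no overlap.
Tlr7 averaged 7.13 ± 1.64 RPKM in Dp16, 6.66 ± 1.16 RPKM in Dp16_2xIFNRs and 9.10 ± 1.17 RPKM in WT spleens. Its range overlapped that of the next gene in each genotype, which was Tlr13 in Dp16 (5.90 ± 1.67 RPKM) and Dp16_2xIFNRs (5.57 ± 0.510 RPKM) and Tlr2 in WT (6.54 ± 0.933 RPKM). Tlr2 and Tlr13 overlapped each other and stood apart from Tlr3, which averaged 2.89 ± 0.488 RPKM in Dp16, 2.92 ± 0.360 RPKM in Dp16_2xIFNRs and 3.78 ± 0.396 RPKM in WT spleens. Tlr4, Tlr6 and Tlr8 followed with overlapping ranges and group means between 1.94 and 2.69 RPKM.
Tlr5 was the lowest receptor and did not overlap its neighbour in the order: it averaged 0.330 ± 0.121 RPKM in Dp16, 0.298 ± 0.149 RPKM in Dp16_2xIFNRs and 0.579 ± 0.216 RPKM in WT spleens. Of the summed RPKM of the 10 receptors, Tlr1 and Tlr9 together made up 51.8% ± 4.92 in Dp16, 53.7% ± 3.48 in Dp16_2xIFNRs and 60.5% ± 4.96 in WT spleens (SD, n = 6 each), with overlapping ranges. RPKM values are scaled to each library's total count and serve here to compare genes with each other and, in an alternative, to test genotypes by limma-trend. Differences between genotypes are given on TMM-scaled CPM, the counts relative to a library size corrected for composition.

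**Figure D1:**
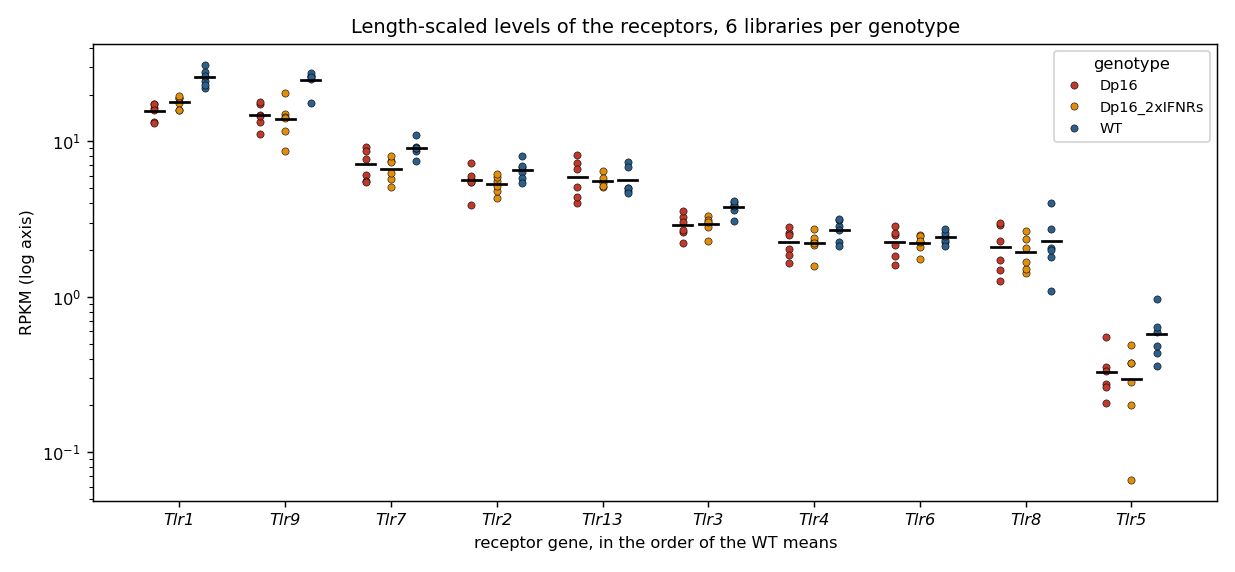
Deposited RPKM (log axis) of the 10 receptors in the order of their WT means, with 1 point per library and a line at the mean of the 6 libraries of Dp16 (left), Dp16_2xIFNRs (middle) and WT (right). Tlr1 and Tlr9 stand above the other receptors in each genotype and Tlr5 is at the bottom, between 0.0662 and 0.968 RPKM.

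The comparison of Dp16 with WT spleens shows which receptors change with the duplicated interval. Tlr1 and Tlr9 fell, and none of the 10 receptors rose. By edgeR, 2 of 10 receptors were lower and 0 higher, against a background of 13.2% lower and 16.6% higher among all tested genes (29.8% called in either direction). At an unadjusted p below 0.05, 3 were lower and 0 higher, beside 3474 lower and 3813 higher of all 18634 tested genes. DESeq2 called 3 lower and 0 higher, and limma voom called 2 lower and 0 higher. The median log2 fold change of the 10 genes was -0.19, beside -0.01 over all tested genes, and 7 of 10 had a negative value. In bulk tissue, fewer cells of a type and less RNA per cell cannot be told apart.

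Tlr1, the partner of Tlr2 in binding triacylated bacterial lipopeptides, had a lowest, median and highest value of 41.5, 52.0 and 56.5 CPM in Dp16 spleens, of 51.4, 58.3 and 63.1 CPM in Dp16_2xIFNRs spleens and of 66.2, 74.7 and 91.0 CPM in WT spleens. Each library of Dp16 and of Dp16_2xIFNRs was below each WT library, while the ranges of Dp16 and Dp16_2xIFNRs overlapped. Its level in Dp16 was 0.656 times that in WT, a log2 fold change of -0.61 ± 0.07 (SE) with an edgeR adjusted p of 6.55e-06. Groups that do not overlap, with Dp16 lower, were found for 4.34% of all tested genes. The call was kept under each of 34 alternative settings, with adjusted p between 1.98e-14 and 0.00331.

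Tlr2, which pairs with Tlr1 or Tlr6 to bind bacterial lipoproteins, had a lowest, median and highest value of 12.7, 17.3 and 21.5 CPM in Dp16 spleens, of 12.9, 16.3 and 20.1 CPM in Dp16_2xIFNRs spleens and of 15.5, 18.6 and 22.6 CPM in WT spleens. The 3 ranges overlapped. The log2 fold change was -0.10 ± 0.13 in Dp16 and -0.18 ± 0.13 in Dp16_2xIFNRs against WT, with edgeR adjusted p of 0.596 and 0.296. Tlr6, the other partner of Tlr2, had a lowest, median and highest value of 6.01, 8.69 and 10.5 CPM in Dp16 spleens, of 6.78, 8.44 and 9.75 CPM in Dp16_2xIFNRs spleens and of 7.42, 8.52 and 9.42 CPM in WT spleens. The WT range lay inside that of Dp16. The 95% interval of its log2 fold change ran from -0.25 to 0.28 in Dp16 and from -0.27 to 0.26 in Dp16_2xIFNRs, and the sign of its fold change differed between scalings.

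Tlr4, the receptor for lipopolysaccharide, had a lowest, median and highest value of 9.68, 12.8 and 15.2 CPM in Dp16 spleens, of 9.03, 12.7 and 14.8 CPM in Dp16_2xIFNRs spleens and of 11.1, 14.7 and 16.1 CPM in WT spleens. The groups overlapped, and the log2 fold changes of -0.16 ± 0.14 in both against WT had edgeR adjusted p of 0.451 in Dp16 and 0.452 in Dp16_2xIFNRs. Tlr5, the flagellin receptor, rested on 37 to 96 reads per library in Dp16, 11 to 106 in Dp16_2xIFNRs and 54 to 186 in WT. Its lowest, median and highest values were 0.916, 1.29 and 2.24 CPM in Dp16, 0.284, 1.35 and 1.96 CPM in Dp16_2xIFNRs and 1.40, 2.06 and 3.71 CPM in WT spleens. The groups overlapped. Its log2 fold changes of -0.66 ± 0.35 in Dp16 and -0.84 ± 0.35 in Dp16_2xIFNRs had the widest error of the 10 receptors, and edgeR adjusted p of 0.167 and 0.0729. In Dp16_2xIFNRs 7 of 34 alternatives called it lower: DESeq2, limma voom, both limma-trend fits, the replicate block, the Gm42418 term and leaving out Dp16_2xIFNRs replicate 2 (adjusted p = 0.0216, against a range of 0.0216 to 0.197 over all alternatives).

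Tlr9, the endosomal receptor for DNA with unmethylated CpG, had a lowest, median and highest value of 41.7, 50.6 and 63.1 CPM in Dp16 spleens, of 31.5, 51.6 and 69.7 CPM in Dp16_2xIFNRs spleens and of 60.8, 85.4 and 91.5 CPM in WT spleens. Each library of Dp16 and of Dp16_2xIFNRs was below the WT median, and 4 of 6 Dp16 libraries and 5 of 6 Dp16_2xIFNRs libraries were below the lowest WT library. That lowest library, WT replicate 2, stood apart from the other WT libraries, which ran from 81.0 to 91.5 CPM. The level was 0.644 times that of WT in Dp16, a log2 fold change of -0.63 ± 0.14 with an edgeR adjusted p of 0.00183. In Dp16_2xIFNRs it was 0.610 times that of WT, a log2 fold change of -0.71 ± 0.14 with an edgeR adjusted p of 0.000681. Without WT replicate 2 the log2 fold changes were -0.70 and -0.77, and under 34 alternatives the adjusted p stayed between 6.96e-05 and 0.0319 in Dp16 and between 6.95e-06 and 0.0107 in Dp16_2xIFNRs.

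Tlr7, the endosomal receptor for single-stranded RNA, had a lowest, median and highest value of 22.2, 27.8 and 38.3 CPM in Dp16 spleens, of 21.7, 27.2 and 33.3 CPM in Dp16_2xIFNRs spleens and of 28.2, 34.0 and 40.5 CPM in WT spleens. The ranges overlapped, and each Dp16_2xIFNRs library was below the WT median. Its log2 fold change was -0.23 ± 0.12 in Dp16 (edgeR adjusted p = 0.177) and -0.34 ± 0.13 in Dp16_2xIFNRs (edgeR adjusted p = 0.0437). The second of these passed the threshold by little: 13 of 34 alternatives ended the call, with adjusted p between 0.0152 and 0.107 over all 34. They were the description-code block (adjusted p = 0.107), the replicate block (0.0631), no sex term (0.0525), leaving out the 4 libraries over 4% Gm42418 (0.0786), and leaving out WT replicate 1, 3, 5 or 6, Dp16 replicate 1, or Dp16_2xIFNRs replicate 2, 4, 5 or 6, which gave adjusted p between 0.0518 and 0.107. In Dp16, 3 of 34 alternatives called Tlr7 lower. Without Dp16 replicate 4, the highest Dp16 library, its log2 fold change was -0.36 (adjusted p = 0.0189, against a range of 0.0189 to 0.457 over all alternatives). Both limma-trend fits called it with all libraries kept (adjusted p = 0.0499 and 0.0488).

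Tlr8, which in human cells binds single-stranded RNA and lies beside Tlr7, had a lowest, median and highest value of 4.68, 6.92 and 10.3 CPM in Dp16 spleens, of 5.00, 6.65 and 9.03 CPM in Dp16_2xIFNRs spleens and of 3.59, 6.60 and 12.7 CPM in WT spleens. The WT range held both others. Its log2 fold changes of 0.01 ± 0.25 in Dp16 (edgeR adjusted p = 0.99) and -0.11 ± 0.25 in Dp16_2xIFNRs (edgeR adjusted p = 0.793) did not pass the test, and the sign of the value in Dp16 differed between scalings. Tlr13, a receptor for bacterial ribosomal RNA, had a lowest, median and highest value of 16.8, 23.9 and 32.7 CPM in Dp16 spleens, of 21.1, 22.5 and 26.0 CPM in Dp16_2xIFNRs spleens and of 18.2, 19.8 and 27.5 CPM in WT spleens. The groups overlapped. Its log2 fold changes were 0.19 ± 0.15 in Dp16 and 0.11 ± 0.15 in Dp16_2xIFNRs, with edgeR adjusted p of 0.393 and 0.656.

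Tlr3, the receptor for double-stranded RNA, had a lowest, median and highest value of 10.7, 13.2 and 15.9 CPM in Dp16 spleens, of 10.7, 13.7 and 15.1 CPM in Dp16_2xIFNRs spleens and of 12.9, 16.6 and 17.5 CPM in WT spleens. Each library of Dp16 and of Dp16_2xIFNRs was below the WT median, and the overlap of Dp16_2xIFNRs with WT came from WT replicate 1, the lowest WT library. The log2 fold changes were -0.28 ± 0.12 in Dp16 (edgeR adjusted p = 0.0759) and -0.26 ± 0.12 in Dp16_2xIFNRs (edgeR adjusted p = 0.0927), so neither was called. Without WT replicate 1 both were called, at -0.34 (adjusted p = 0.0300) in Dp16 and -0.33 (adjusted p = 0.0368) in Dp16_2xIFNRs. Leaving out Dp16 replicate 5 also gave the call in Dp16 (adjusted p = 0.0295). In all, 7 of 34 alternatives called Tlr3 lower in Dp16 and 4 of 34 in Dp16_2xIFNRs. The others in Dp16 were upper-quartile scaling (adjusted p = 0.0291), DESeq2 (0.0495), both limma-trend fits (0.0225 and 0.0201) and the replicate block (0.0410). The others in Dp16_2xIFNRs were upper-quartile scaling (0.0368) and both limma-trend fits (0.0285 and 0.0250). Over all 34 alternatives the adjusted p ran from 0.0201 to 0.294 in Dp16 and from 0.0250 to 0.210 in Dp16_2xIFNRs.

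**Figure D2:**
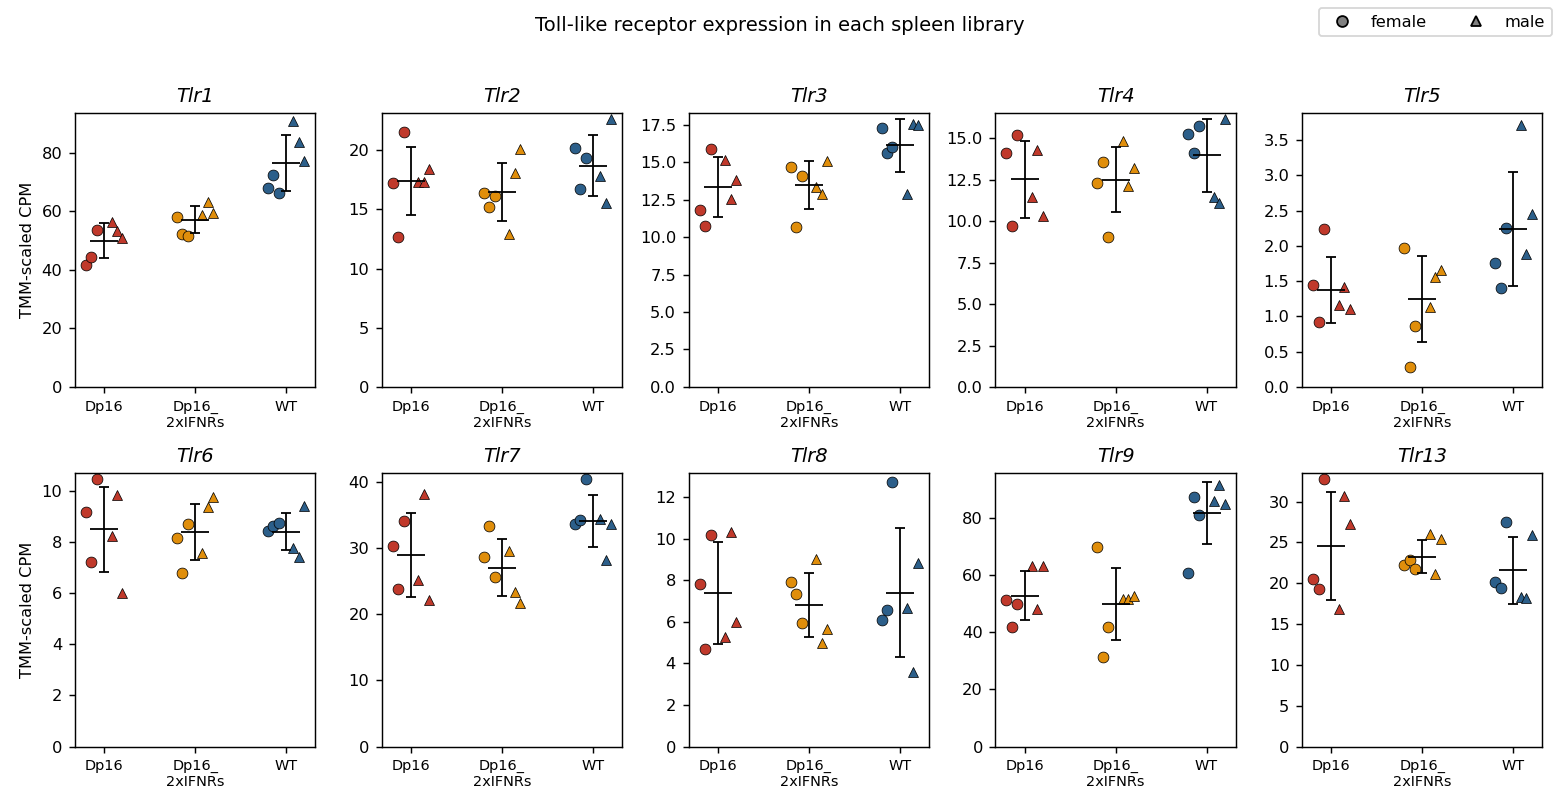
TMM-scaled CPM of each receptor by genotype (Dp16, Dp16_2xIFNRs, WT from left to right), 1 point per library, circles for female and triangles for male, with a line at the mean of 6 libraries and bars of 1 SD; each panel has its own axis from 0. The Tlr1 libraries of Dp16 (41.5 to 56.5) and Dp16_2xIFNRs (51.4 to 63.1) are all below those of WT (66.2 to 91.0), while 1 low WT library at 60.8 makes the Tlr9 groups overlap.

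The comparison of Dp16_2xIFNRs with WT spleens shows which receptors differ when the duplicated interval is present with the normal number of interferon receptor genes. Tlr1 and Tlr9 fell, Tlr7 fell with a call that 13 of 34 alternatives ended, and no receptor rose. By edgeR, 3 of 10 were lower and 0 higher, against a background of 14.2% lower and 17.3% higher among all tested genes (31.4% in either direction). At an unadjusted p below 0.05, 5 were lower and 0 higher, beside 3584 lower and 3958 higher of all 18634 tested genes. DESeq2 called 4 lower and 0 higher, and limma voom called 4 lower and 0 higher. The log2 fold change of Tlr1 was -0.41 ± 0.07 with an edgeR adjusted p of 0.000186 (3.03e-07 to 0.00894 over 34 alternatives). Its libraries did not overlap those of WT, which held with Dp16_2xIFNRs lower for 5.75% of tested genes. The median log2 fold change of the 10 genes was -0.22, beside -0.01 over all tested genes, and 9 of 10 had a negative value. Both comparisons use the same 6 WT libraries and are not independent of each other.

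The direct comparison of Dp16_2xIFNRs with Dp16 spleens asks whether the receptors depend on the copy number of the interferon receptor genes. By edgeR, 0 of 10 receptors were called, beside 0.0215% of all tested genes (4 lower, 0 higher), and DESeq2 and limma voom also called 0 receptors. At an unadjusted p below 0.05, 248 of all 18634 tested genes were higher and 190 lower. Of the receptors, 1 was higher and 0 lower at this threshold. This was Tlr1, with a log2 fold change of 0.19 ± 0.07 (95% interval 0.06 to 0.33, unadjusted p = 0.0117, edgeR adjusted p = 1), and its ranges overlapped. For Tlr9 the log2 fold change was -0.08 ± 0.14 (95% interval -0.35 to 0.19), and for Tlr7 -0.11 ± 0.13 (95% interval -0.35 to 0.14). Intervals of the other receptors ran at their widest from -0.86 to 0.51, for Tlr5. A p that misses the threshold does not show that the genotypes had the same level.

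**Figure D3:**
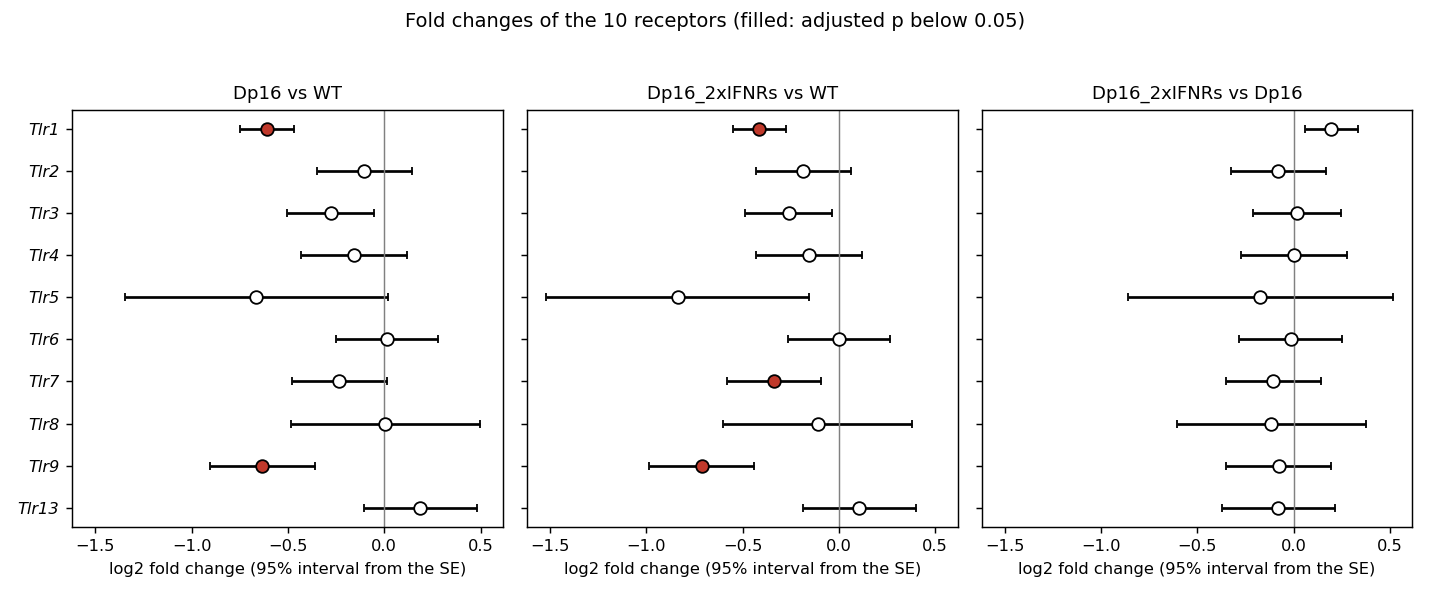
Log2 fold changes of the 10 receptors with 95% intervals from the SE of the edgeR fit (18 libraries) in 3 panels, one for each pair of genotypes; filled points passed an adjusted p below 0.05. Tlr1 and Tlr9 are filled in the first panel and Tlr1, Tlr7 and Tlr9 in the second, all below 0, and no point is filled in the third.

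Between the sexes, no receptor was called by edgeR over the 18 libraries, where 0.258% of all tested genes were called (0.204% higher and 0.0537% lower in females). At an unadjusted p below 0.05, 1 receptor was lower in females and 0 higher. This was Tlr1, which averaged 56.4 ± 10.6 CPM in females and 65.9 ± 14.4 CPM in males (SD, n = 9 each), with a log2 fold change of -0.22 ± 0.06 (unadjusted p = 0.00102, edgeR adjusted p = 0.162). Of 32 alternatives, DESeq2 alone called it (adjusted p = 0.0477, against a range of 0.0477 to 1 over all of them). The X-linked receptors had log2 fold changes of females over males of 0.15 ± 0.10 for Tlr7, 0.20 ± 0.20 for Tlr8 and -0.02 ± 0.12 for Tlr13. Tests of whether the genotype difference itself differed between females and males called 0 of 10 receptors and 0 genes in all, for either duplication genotype, and 0 receptors at an unadjusted p below 0.05. Of the cell type markers described further on, 8 of 13 neutrophil markers were higher and 1 of 12 B cell markers lower in females than in males; their part in the receptor values was not tested. In Dp16 against WT, Tlr1 had a log2 fold change of -0.57 ± 0.11 in females and -0.65 ± 0.11 in males, and Tlr9 of -0.68 ± 0.21 in females and -0.59 ± 0.21 in males. In Dp16_2xIFNRs against WT, the values were -0.35 ± 0.10 in females and -0.47 ± 0.10 in males for Tlr1, and -0.68 ± 0.21 in females and -0.75 ± 0.21 in males for Tlr9. The edgeR adjusted p of Tlr1 was 0.00536 in females and 0.000575 in males for Dp16, and 0.0516 in females and 0.00359 in males for Dp16_2xIFNRs. That of Tlr9 was 0.0487 in females and 0.0594 in males for Dp16, and 0.0577 in females and 0.0157 in males for Dp16_2xIFNRs.

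Of the other mouse receptors of the family, Tlr11 and Tlr12, both bind profilin of protozoan parasites. Tlr11 had a lowest, median and highest value of 6.86, 8.59 and 14.0 CPM in Dp16 spleens, of 8.15, 8.81 and 13.6 CPM in Dp16_2xIFNRs spleens and of 10.5, 12.7 and 15.6 CPM in WT spleens. It was lower in Dp16 (log2 fold change -0.49 ± 0.14, edgeR adjusted p = 0.0121) and in Dp16_2xIFNRs (-0.43 ± 0.14, edgeR adjusted p = 0.0259), with overlapping groups. Tlr12 was not called, at -0.01 ± 0.10 in Dp16 and -0.03 ± 0.10 in Dp16_2xIFNRs against WT.

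Around the receptors, 87 genes in 8 lists of the pathway (Tlr11 and Tlr12 included) were measured and 86 tested. The genes named from each list below are the 3 with the smallest edgeR p in Dp16 against WT. Their fold changes were selected in this way and do not stand for the list. In Dp16 against WT 9 were higher and 22 lower, with a median log2 fold change of -0.14. With the description code as a block 7 were higher and 10 lower, and by limma-trend on log2 RPKM 6 were higher and 35 lower. In Dp16_2xIFNRs against WT 10 were higher and 28 lower, with a median of -0.11, against 8 higher and 18 lower with the code as a block and 6 higher and 38 lower by limma-trend. Without the 4 libraries over 4% Gm42418, 18 were lower. The medians over all tested genes were -0.01 in both, and the shares of all genes called are those given above for the receptors. In Dp16_2xIFNRs against Dp16, 0 of 86 were called by edgeR, with 3 higher and 0 lower at an unadjusted p below 0.05, and between the sexes 0 of 86 were called, with 8 higher and 8 lower at an unadjusted p below 0.05.

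Of 8 genes that bind ligands or accompany surface receptors, 2 rose and 1 fell in Dp16, and the same numbers rose and fell in Dp16_2xIFNRs. Lbp, which hands lipopolysaccharide to Cd14 and Tlr4, averaged 11.3 ± 3.72 CPM in Dp16, 8.49 ± 1.45 CPM in Dp16_2xIFNRs and 4.24 ± 1.77 CPM in WT spleens (SD, n = 6 each), with log2 fold changes of 1.41 ± 0.19 in Dp16 and 1.03 ± 0.19 in Dp16_2xIFNRs against WT. Hmgb1, a nuclear protein that can act as an endogenous ligand when released, rose by 0.52 ± 0.08 in Dp16 and 0.45 ± 0.08 in Dp16_2xIFNRs on the log2 scale. Cd180, a Toll-like receptor relative of B cells, averaged 93.9 ± 11.3 CPM in Dp16, 96.2 ± 8.15 CPM in Dp16_2xIFNRs and 125 ± 23.7 CPM in WT spleens and fell by 0.41 ± 0.10 in Dp16 and by 0.37 ± 0.10 in Dp16_2xIFNRs on the log2 scale.

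Of 12 genes that fold, move or cleave the receptors, 2 rose and 2 fell in each comparison with WT. Unc93b1, which carries Tlr3, Tlr7, Tlr9 and Tlr13 to endosomes, averaged 452 ± 43.3 CPM in Dp16, 468 ± 41.7 CPM in Dp16_2xIFNRs and 532 ± 35.4 CPM in WT spleens, with log2 fold changes of -0.24 ± 0.07 in Dp16 (edgeR adjusted p = 0.0115) and -0.19 ± 0.07 in Dp16_2xIFNRs (edgeR adjusted p = 0.043). Slc15a4, an endolysosomal transporter needed for Tlr7 and Tlr9 responses, fell by 0.31 ± 0.09 in Dp16 and by 0.33 ± 0.09 in Dp16_2xIFNRs on the log2 scale. Ctsb, a lysosomal cathepsin, rose by 0.29 ± 0.09 in Dp16 and 0.29 ± 0.09 in Dp16_2xIFNRs.

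Of 19 adaptors and kinases, 1 rose and 4 fell in Dp16, and 1 rose and 6 fell in Dp16_2xIFNRs. Traf3, which links the receptors to interferon production, averaged 52.1 ± 7.91 CPM in Dp16, 53.7 ± 11.1 CPM in Dp16_2xIFNRs and 79.6 ± 11.4 CPM in WT spleens, with log2 fold changes of -0.61 ± 0.13 in Dp16 and -0.57 ± 0.13 in Dp16_2xIFNRs. Traf6, the ubiquitin ligase downstream of Myd88, had log2 fold changes of -0.47 ± 0.09 in Dp16 and -0.35 ± 0.09 in Dp16_2xIFNRs, and Ikbkb, a kinase that releases NF-kappa B, of -0.35 ± 0.09 in Dp16 and -0.32 ± 0.09 in Dp16_2xIFNRs.

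Of 15 negative regulators, 1 rose and 6 fell in Dp16, and 1 rose and 9 fell in Dp16_2xIFNRs. The one that rose was Usp25, a deubiquitinase encoded on chromosome 16 inside the duplicated interval, which averaged 225 ± 13.8 CPM in Dp16, 224 ± 49.2 CPM in Dp16_2xIFNRs and 128 ± 13.8 CPM in WT spleens. Its log2 fold change was 0.82 ± 0.11 in Dp16 and 0.82 ± 0.11 in Dp16_2xIFNRs against WT. Nfkbie, an inhibitor of NF-kappa B, had log2 fold changes of -0.51 ± 0.09 in Dp16 and -0.37 ± 0.09 in Dp16_2xIFNRs, and Cyld, a deubiquitinase that restrains NF-kappa B, of -0.28 ± 0.07 in Dp16 and -0.35 ± 0.07 in Dp16_2xIFNRs.

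Of 11 transcription factors, 1 rose and 6 fell in Dp16, and 1 rose and 7 fell in Dp16_2xIFNRs, with list medians of -0.39 and -0.37. Rel, the NF-kappa B subunit c-Rel of lymphocytes, averaged 56.7 ± 12.7 CPM in Dp16, 61.8 ± 12.2 CPM in Dp16_2xIFNRs and 108 ± 15.4 CPM in WT spleens. Its log2 fold change was -0.94 ± 0.13 in Dp16 and -0.81 ± 0.13 in Dp16_2xIFNRs, with no overlap with WT in either. Relb, another NF-kappa B subunit, had log2 fold changes of -0.56 ± 0.07 in Dp16 and -0.42 ± 0.07 in Dp16_2xIFNRs. Irf7, which drives interferon genes after Tlr7 or Tlr9 signalling and is itself induced by interferon, rose by 0.76 ± 0.11 in Dp16 and 0.54 ± 0.11 in Dp16_2xIFNRs on the log2 scale, and its log2 fold change of Dp16_2xIFNRs over Dp16 was -0.21 ± 0.11 (edgeR adjusted p = 1).

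Of 13 cytokine and effector genes that the receptors induce, 12 were tested. In Dp16 1 fell and 0 rose, and in Dp16_2xIFNRs 1 rose and 0 fell. Cxcl10, an interferon-induced chemokine, averaged 18.7 ± 1.36 CPM in Dp16, 23.5 ± 2.63 CPM in Dp16_2xIFNRs and 22.8 ± 4.26 CPM in WT spleens, with a log2 fold change of -0.29 ± 0.11 in Dp16 (edgeR adjusted p = 0.0478) and 0.05 ± 0.11 in Dp16_2xIFNRs (edgeR adjusted p = 0.793). Ccl3, a chemokine of myeloid cells, rose in Dp16_2xIFNRs by 0.75 ± 0.27 on the log2 scale (edgeR adjusted p = 0.042), and its log2 fold change in Dp16 was 0.49 ± 0.27 (edgeR adjusted p = 0.191). Tnf had log2 fold changes of -0.42 ± 0.22 in Dp16 and -0.23 ± 0.22 in Dp16_2xIFNRs and was not called.

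Of 7 genes of the interleukin 1 receptor family, which share the signalling domain of Toll-like receptors with the exception of the decoy Il1r2, 2 rose and 1 fell in Dp16, and 2 rose and 2 fell in Dp16_2xIFNRs. Il1rl1, the receptor of interleukin 33, averaged 23.5 ± 3.35 CPM in Dp16, 20.9 ± 5.93 CPM in Dp16_2xIFNRs and 8.94 ± 4.09 CPM in WT spleens, with log2 fold changes of 1.44 ± 0.24 in Dp16 and 1.30 ± 0.24 in Dp16_2xIFNRs. Il1r2 had log2 fold changes of 1.35 ± 0.22 in Dp16 and 0.96 ± 0.21 in Dp16_2xIFNRs, and Il18r1, a chain of the interleukin 18 receptor, of -0.42 ± 0.15 in Dp16 and -0.45 ± 0.15 in Dp16_2xIFNRs.

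**Figure D4:**
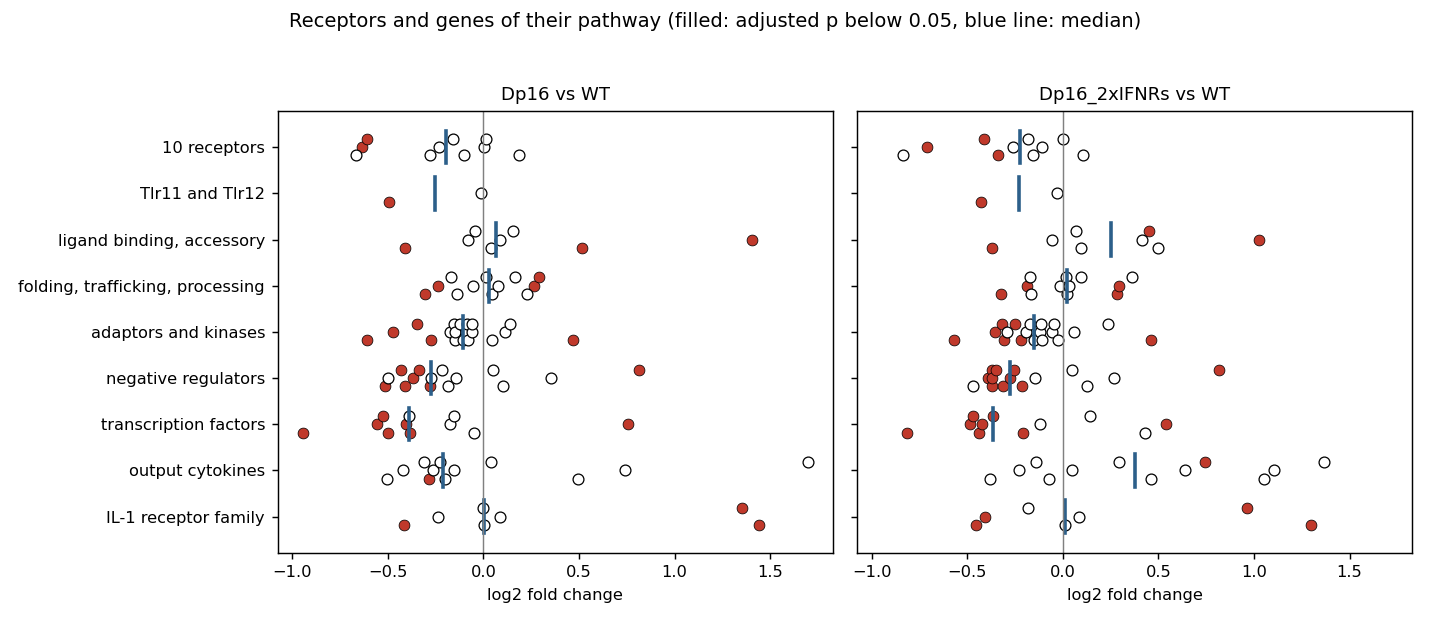
Log2 fold changes of the receptors and of the pathway lists, 1 point per gene, for Dp16 vs WT and Dp16_2xIFNRs vs WT; filled points passed an edgeR adjusted p below 0.05 and the blue line is the list median. The transcription factors have the lowest list median (-0.39 in Dp16 and -0.37 in Dp16_2xIFNRs).

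Marker genes of the cells that could carry the receptors moved with genotype, and their part in the fall of Tlr1 and Tlr9 was not tested. The shares of all tested genes called higher or lower are those given above for the receptors. The summed levels weigh the most abundant genes of a list most. These were Ly6d and Tcf4 for plasmacytoid and Wdfy4 and Itgax for conventional dendritic cells. Whether other cells, such as B cells, carry part of these sums was not tested. Of 12 B cell markers, 11 were lower and 0 higher in Dp16 and the same numbers in Dp16_2xIFNRs, with median log2 fold changes of -0.63 and -0.58. Their summed level was 3022 to 3641 CPM in Dp16, 3068 to 3819 CPM in Dp16_2xIFNRs and 4196 to 6102 CPM in WT spleens, with no overlap with WT. WT replicate 2, the library with the least Tlr9 of its group, also had the lowest B cell sum of its group, 4196 CPM. Of the signalling chains of the B cell receptor, Cd79a had a log2 fold change of -0.47 ± 0.09 in Dp16 and -0.37 ± 0.09 in Dp16_2xIFNRs, and Cd79b of -0.53 ± 0.09 in Dp16 and -0.46 ± 0.09 in Dp16_2xIFNRs.

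Of 8 plasmacytoid dendritic cell markers, 2 were higher and 4 lower in Dp16, and 2 higher and 2 lower in Dp16_2xIFNRs; their sums were 502 to 621 CPM in Dp16, 521 to 666 CPM in Dp16_2xIFNRs and 580 to 755 CPM in WT spleens. Of 8 conventional dendritic cell markers, 0 were higher and 4 lower in Dp16, and 0 higher and 3 lower in Dp16_2xIFNRs; the sums were 386 to 620 CPM in Dp16, 379 to 554 CPM in Dp16_2xIFNRs and 565 to 822 CPM in WT spleens. Monocyte sums overlapped between genotypes (580 to 779 CPM in Dp16, 692 to 758 CPM in Dp16_2xIFNRs and 656 to 803 CPM in WT), as did those of red pulp macrophages (2671 to 3749 CPM in Dp16, 2895 to 3385 CPM in Dp16_2xIFNRs and 2346 to 3487 CPM in WT). Of 8 monocyte markers 2 were higher and 2 lower in Dp16, and 3 higher and 0 lower in Dp16_2xIFNRs, and of 10 macrophage markers 3 were higher in Dp16 and 4 in Dp16_2xIFNRs, with 0 lower in either.

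Neutrophils are known to carry Tlr2 and Tlr4. Their markers were higher in 11 of 13 genes in each comparison with WT and lower in 0. The neutrophil sums were 3264 to 10619 CPM in Dp16, 3674 to 6112 CPM in Dp16_2xIFNRs and 505 to 1973 CPM in WT spleens. Erythroid markers, of cells that are not known for these receptors, were higher in 10 of 10 genes in both, with sums of 18885 to 36267 CPM in Dp16, 18107 to 37528 CPM in Dp16_2xIFNRs and 4713 to 17322 CPM in WT spleens. T cell sums overlapped between genotypes, with 2 of 8 markers lower in Dp16, 1 of 8 lower in Dp16_2xIFNRs and 0 higher. No marker list held a gene at 0 in all libraries. Of the remaining lists, natural killer cell markers were lower in 4 of 8 genes in Dp16 and 3 of 8 in Dp16_2xIFNRs, endothelial markers in 4 of 7 in each and stromal markers in 4 of 8 and 3 of 8. Only 1 of these 3 lists had a gene that rose, the endothelial list with Vwf, which was named after its values were seen.

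**Figure D5:**
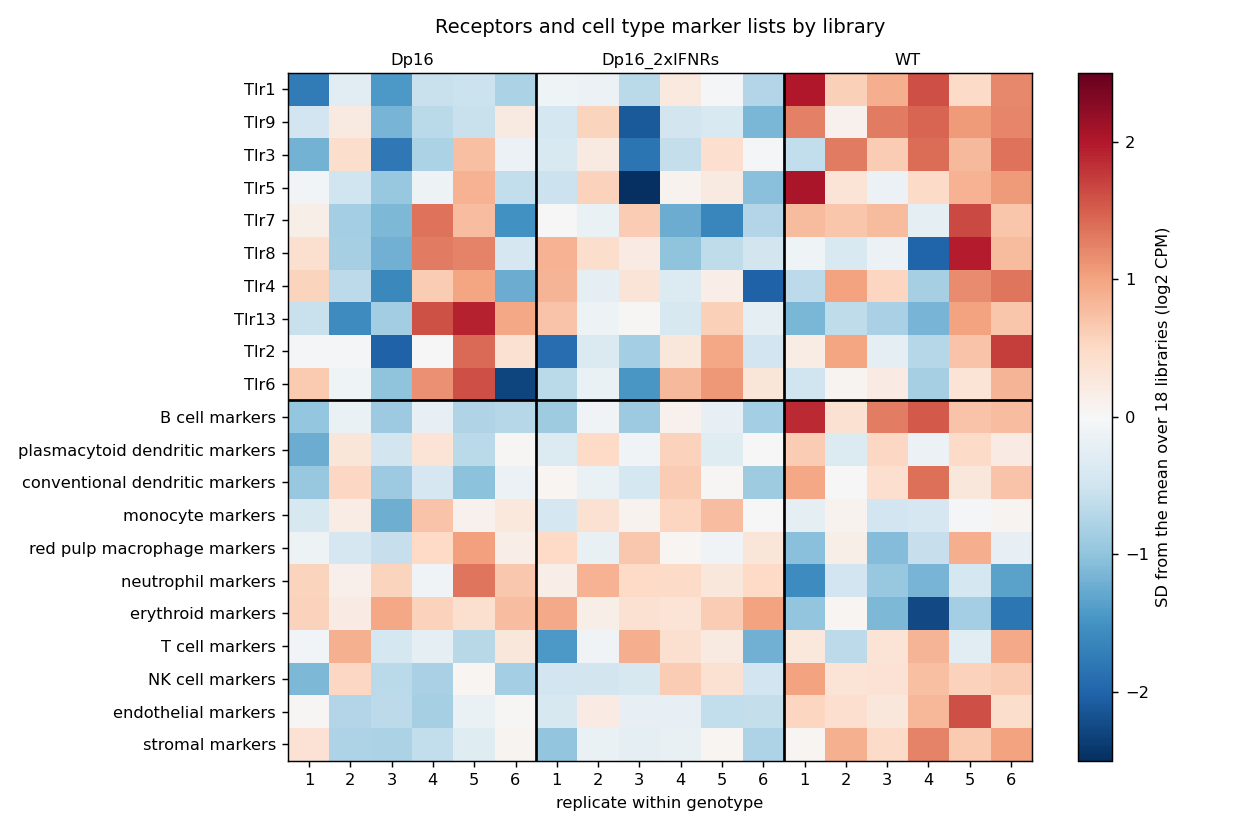
Heat map of the receptors and of the marker lists in each library (columns by replicate, grouped as Dp16, Dp16_2xIFNRs and WT), as the distance from the mean over 18 libraries in SD of log2 CPM, averaged over the genes of a list. Tlr1, the B cell list and, except in WT replicate 2, Tlr9 are high in WT libraries, while the neutrophil and erythroid lists are lower there than in the other libraries.

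Profiles over the 18 libraries were compared by their mean absolute difference in SD of log2 CPM, for which the median over all tested genes was about 1.1. The genes most like each receptor were sought only among protein-coding genes, without Gm, Rik and accession-like names. For Tlr1 these were Srpk3 (0.233 SD), a kinase of splicing factors, and H2-Ob (0.243 SD), a chain of the HLA-DO homologue of B cells, and both were lower in Dp16 and in Dp16_2xIFNRs. For Tlr9 the nearest was Adgre5 (0.249 SD), the adhesion receptor CD97. Of the genes searched, none was as close to the other receptors. The nearest were Ryr3 for Tlr7 (0.380 SD), Usp30 for Tlr3 (0.370 SD), Smpd3 for Tlr5 (0.395 SD) and Lipo3 for Tlr6 (0.398 SD). For the rest they were Snap23 for Tlr8 (0.401 SD), Fmnl2 for Tlr4 (0.420 SD), Ctsl for Tlr13 (0.448 SD) and Megf6 for Tlr2 (0.449 SD). Among the receptors themselves, Tlr1 and Tlr9 were the closest pair (0.531 SD), followed by Tlr5 and Tlr9 (0.555 SD), Tlr3 and Tlr9 (0.572 SD) and the neighbours Tlr7 and Tlr8 (0.586 SD). Many other genes were closer to Tlr1 and Tlr9: among all tested genes, Tlr9 ranked 708 from Tlr1 and Tlr1 ranked 969 from Tlr9. Tlr1 and Tlr13 were the farthest apart (1.26 SD), and the chromosomal neighbours Tlr1 and Tlr6 were 1.06 SD apart. These likenesses share the libraries and the difference between genotypes, and are a description only.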

How the data were processed

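Poly(A) RNA of mouse spleen, in 18 libraries, was extracted with TRIzol, made into strand-specific libraries with a Tecan Universal Plus mRNA kit and sequenced as paired 150-base reads, per the labels' protocols. Demultiplexing with bcl2fastq, quality checks with FastQC 0.11.5, alignment with HISAT2 2.1.0, SAMtools 1.5 and counting with HTSeq 0.6.1 on GRCm38 are named in the submitters' processing notes, without their settings, and whether counting used the strand is not given in the sources used here. The deposited table holds a raw count per gene and library, and the authors' RPKM, which equals the count scaled by gene length and library total to within a relative deviation of 6.66e-16 in 11538 genes checked. 

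From the counts, edgeR 4.0.16 (quasi-likelihood test, robust, TMM scaling, genes kept by filterByExpr) was fitted to all 18 libraries with genotype and sex as terms, and p-values were Benjamini-Hochberg adjusted over 18634 tested genes with a threshold of 0.05. A second fit with 6 sex-by-genotype groups gave the values within each sex and the interactions. Intervals are 1.96 SE on either side, and CPM are TMM-scaled. Alternatives used DESeq2 1.42.0, limma 3.58.1 (voom, and limma-trend on log2 of RPKM plus 0.1 or plus 1), other scalings, filters, blocks and terms, and each library left out. Gene IDs matched the annotation for 99.6% of 55385 rows. In 45 pairs of libraries within a genotype, chi-square divided by its degrees of freedom was 35.1 to 200.4, above the sampling noise, so none was counted as a repeat. The edgeR fit was also run on simulated counts with known changes in Dp16 against WT. It recovered 41.7% of 108 genes changed by 0.5 on the log2 scale and 76.1% of 92 changed by 1. There were 4 false calls in this fit of 18132 genes. Only those 108 and 92 genes were changed, a far smaller share than the 29.8% called in the data. The adjustment of p therefore differs, and these rates do not give the power of the test on the data.

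Named were all 10 receptors, Tlr11 and Tlr12, and the 3 genes of each pathway list with the smallest p in Dp16 against WT. Also named were the 2 most abundant genes of a marker list (printed for B cells and dendritic cells only). The 2 nearest profiles of each receptor were named too, of which the second is printed for Tlr1 only. The 10 receptors were taken by gene symbol and not by any measured value. They, the lists and the rules were nevertheless set with earlier results of these data known.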

Additional observations from a re-analysis of the deposited data

Results flagged for a closer look

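Of 30 groups of 6 libraries (10 receptors in 3 genotypes) in which the highest or lowest library was set against the spread of its group, 1 held a library that stood apart; chance gives about 1 in 20. This was Tlr9 in WT spleens, where WT replicate 2 had 60.8 CPM and the next lowest WT library 81.0 CPM. The same library had the lowest WT sums of B cell markers (4196 CPM), plasmacytoid dendritic cell markers (580 CPM), conventional dendritic cell markers (565 CPM) and T cell markers (713 CPM), and the highest WT sum of erythroid markers (17322 CPM). Such sums weigh the most abundant genes of a list most, and whether those of different lists are separate signals was not tested. Whether these sums account for its low Tlr9 was not tested. Without it, the log2 fold change of Tlr9 was -0.70 in Dp16 and -0.77 in Dp16_2xIFNRs against WT (edgeR adjusted p = 0.000758 and 0.000274).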

How the results depend on the processing

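Of 1340 alternative values, 1284 kept their direction and call or moved within the error and 0 reversed; signs changed 108 times, in uncalled values. Tlr1 and Tlr9 kept their calls against WT under all 34 alternatives. The limma-trend fits on log2 of RPKM plus 0.1 and plus 1 called 4 and 4 receptors lower in Dp16 and 5 and 5 in Dp16_2xIFNRs, 35 and 35 pathway genes lower in Dp16, 6 and 6 higher in Dp16_2xIFNRs, 3924 and 4018 genes lower in Dp16, and with plus 1 4061 lower in Dp16_2xIFNRs (all-gene median -0.13 in Dp16 with plus 0.1). An adjusted p below 0.1 called 5 receptors lower in Dp16_2xIFNRs, and 65 genes higher and 22 lower in females. With the description code as a block, 10 pathway genes were lower in Dp16 and 18 in Dp16_2xIFNRs, 1692 genes rose and 835 fell in Dp16, 0 fell in Dp16_2xIFNRs against Dp16, and 8 higher and 4 lower in females. Without the 4 libraries over 4% Gm42418, 18 pathway genes and 1734 genes were lower in Dp16_2xIFNRs, and 5 genes higher and 5 lower in females. For females against males DESeq2 called 1 receptor lower, 102 genes higher and 40 lower, voom 21 genes lower and the library index term 17 lower; causes were not tested.

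Leaving out 1 library at a time gave 2 to 3 receptors lower in Dp16 and 2 to 3 in Dp16_2xIFNRs, 6 to 11 pathway genes higher in Dp16_2xIFNRs, and 14 to 50 genes higher and 7 to 31 lower in females. Deviations from the genotype means had a mean r of 0.019 over 18 same-numbered pairs of libraries (-0.132 to 0.201). It was -0.004 over 90 pairs with other numbers (-0.216 to 0.216) and 0.053 over 7 pairs sharing a description code (-0.043 to 0.216). Of 18 libraries, 6 were most like their own number. Nothing says that the numbers pair animals, so they were not taken as pairs. With the replicate block, 3 receptors were lower in Dp16 (Tlr3 gained, adjusted p = 0.0410) and 3 in Dp16_2xIFNRs, with Tlr5 gained and Tlr7 lost (adjusted p = 0.0631); 3008 genes rose and 2526 fell in Dp16, 3090 and 2706 in Dp16_2xIFNRs, and 8 and 8 in females. Tlr5 rested on 11 to 186 reads per library, the fewest of the receptors.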
